A study of Mus musculus and blank sample with 91 samples.

Results

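The samples described here are the stool samples of naïve mice, which received no immunization. They were chosen by their labels, as all samples given as naïve. Days are counted in dpi, from the immunization of the other mice, and stool was taken at -2, at 8, at 14, at 19 and at 29 dpi. This gave 30 of the 91 samples of the series, from 6 mice numbered 558 to 563 and followed through all 5 days. The study profiled bacteria in feces over the course of experimental autoimmune encephalomyelitis (EAE), a mouse model of multiple sclerosis. All mice were female C57BL/6 mice, 8 weeks old on purchase, and the naïve mice had a clinical score of 0 at each day. EAE mice were immunized with a myelin oligodendrocyte glycoprotein (MOG) peptide in Complete Freund's Adjuvant and were given pertussis toxin, and CFA mice received the adjuvant without the MOG peptide. They appear here only beside the naïve values. Treatments were assigned per cage, and the cage of each mouse is not given in the sources used here, so an effect of the mouse and one of its cage cannot be told apart.

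The stool community of laboratory mice is mostly made of obligate anaerobes of the phyla Firmicutes and Bacteroidetes, with Lactobacillus as a lactic acid producer that ferments simple sugars and Akkermansia, of the phylum Verrucomicrobia, as a degrader of intestinal mucus. Lachnospiraceae and Ruminococcaceae are families of Clostridia that ferment plant fiber, and several of their genera make butyrate, a fuel of the gut epithelium. Prevotella ferments polysaccharides, and Turicibacter is a genus of Erysipelotrichaceae that lives mostly in the small intestine.

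Bacterial abundance was measured by sequencing the V3 to V4 region of the 16S rRNA gene, as read counts per amplicon sequence variant (ASV, a distinct sequence inferred from the reads). A share in percent is the count of a taxon over the total of its sample, so a rise of one taxon lowers the shares of others, and neither cell numbers nor genome numbers were measured. Totals ranged from 33356 to 102437 counts with a median of 65306.5. Medians by day lay between 55504 (14 dpi) and 84730 (29 dpi). By counting error alone, a count of 0 allows a share of up to 0.00293% to 0.00899% (3 counts of the total). Counts above 0 were mostly far higher, with 5th percentiles of 69.8 per ASV and 0.127% per genus. The share that a sequence needed to be inferred as an ASV was not tested, so a 0 may stand for more. Wilson 95% intervals of the shares given per mouse were at most 1.03 percentage points wide, and intervals and limits cover counting error only. ASVs that differed only within the primers were merged, which left 263 merged sequences from 1078 ASVs in the naïve mice, with 16 to 71 per sample (median 38.5). Names are the deposited ones, and 31 merged sequences carried more than 1 genus name. These held 20.2% of all naïve counts. All counts named Barnesiella and 94.0% of those named Prevotella came from sequences that bore both names, so these names do not separate here. The same holds for Hungatella and Lachnospiraceae_NK4A136/Hungatella, with 100% and 67.9% of their counts in sequences with more than 1 genus name. No naïve counts named Lactobacillus, Turicibacter, Akkermansia, Dorea or Oscillibacter came from a sequence with more than 1 genus name. Oscillibacter was, however, also a name of sequences that held 7.79% of Flintibacter and 7.87% of Ruminiclostridium_C-Clostridium IV counts. Counts of Eukaryota reached at most 0.0362% of a sample and appeared in 2 samples, and the water-borne family Pseudomonadaceae had none.

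At the level of phyla, Firmicutes made up 73.0% ± 12.7 of counts (SD, n = 30 samples of 6 mice), Bacteroidetes 15.8% ± 7.11 and Verrucomicrobia 10.5% ± 9.31. Lactobacillaceae (29.7% ± 14.9), Lachnospiraceae (20.3% ± 12.2), Erysipelotrichaceae (13.3% ± 11.8) and Ruminococcaceae (5.43% ± 2.92) had counts in all 30 samples. Prevotellaceae (13.3% ± 7.08), Verrucomicrobiaceae (10.5% ± 9.31), Porphyromonadaceae (2.196% ± 2.80) and Oscillospiraceae (1.47% ± 1.00) completed the 8 most abundant families. These SDs mix differences between mice with those between days of a mouse.

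The core of genera was small. Of 62 genera with counts in a naïve mouse, Lactobacillus was the only one with counts in all 30 samples, and it remained the only one after rarefying to 33356 counts. Its shares ran from 6.59% to 63.4%. Lactobacillus johnsonii, a common rodent species, held 99.8% to 100% of these counts in each sample. A further 6 genera reached at least 27 samples: Lachnospiraceae_NK4A136-Clostridium XlVa (29 samples), Prevotella and Oscillibacter (28 each), and Lachnospiraceae_NA, Dorea and Lachnospiraceae_NK4A136/Hungatella (27 each). With each sequence under its majority genus name, Lachnospiraceae_NK4A136/Hungatella had counts in only 22 samples. Altogether 31 genera had counts in at least 15 samples and 12 in only 1 or 2. The 12 genera with the highest mean share held 70.7% to 96.4% of a sample (median 84.0%), and Lactobacillus, Prevotella, Turicibacter and Akkermansia alone held 24.1% to 92.9% (median 66.6%). Lactobacillus was the most abundant genus in 17 samples, which came from all 6 mice. Turicibacter led in 7 samples of 3 mice, Akkermansia in 3, Prevotella in 2 and Roseburia, a butyrate producer, in 1.

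Presence over time was patchy in each mouse. A mouse carried 107 to 125 merged sequences over the 5 days, of which 2 to 10 were present at all days and 59 to 78 on a single day. Genera were kept more often, with 5 to 15 of the 45 to 56 genera of a mouse present at all 5 days. Those kept at all days held a median of 52.4% (mouse 558) to 82.7% (mouse 563) of the counts of that mouse. Lactobacillus was kept in 6 mice, Lachnospiraceae_NK4A136-Clostridium XlVa in 5, Prevotella and Oscillibacter in 4 and Turicibacter in 3. Akkermansia, although the fourth genus by mean share, was kept at all days in mouse 563 only.

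**Figure D1:**
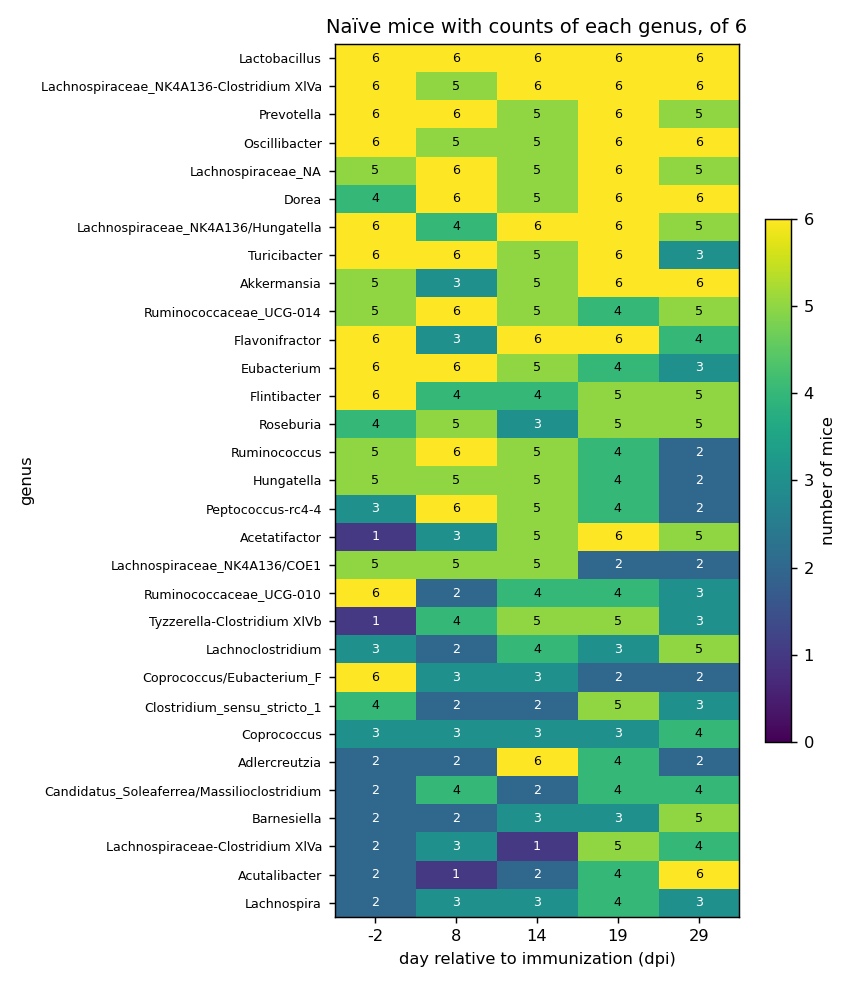
Number of naïve mice (of 6) with counts of each of the 31 genera present in at least 15 of 30 samples, by day. Lactobacillus is full on each day, and most other genera lose or gain mice from day to day.

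Several less abundant genera were found in more or fewer mice at later days, and these examples were picked after their values were seen, without a test. Acetatifactor, a Lachnospiraceae genus, had counts in 1, 3, 5, 6 and 5 mice from -2 to 29 dpi, and Acutalibacter, a Ruminococcaceae genus, in 2, 1, 2, 4 and 6 mice. In the other direction, Coprococcus/Eubacterium_F was found in 6, 3, 3, 2 and 2 mice and Ruminococcus, which includes fiber degraders, in 5, 6, 5, 4 and 2 mice. Adlercreutzia, the sole source of Actinobacteria counts, was found in 6 mice at 14 dpi and in 2 mice at -2, 8 and 29 dpi. Totals were highest at 29 dpi, and the part of depth in these counts was not tested beyond rarefying, which left the single core genus in place.

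Lactobacillus ranged widely within each mouse. Its share in mouse 558 was 27.9%, 63.4%, 48.0%, 20.6% and 43.4% from the first to the last day, and in mouse 559 it was 18.7%, 44.0%, 30.1%, 6.59% and 54.1%. Mouse 560 had 53.7%, 8.59%, 38.6%, 24.5% and 42.7%. The mice did not move together, since between -2 and 8 dpi mouse 558 more than doubled its share while mouse 560 lost most of it. Mouse 561 was the steadiest with 29.0%, 29.0%, 19.1%, 38.1% and 30.3%, and mouse 562 had 43.2%, 20.2%, 22.8%, 33.2% and 13.8%. Mouse 563 had the lowest mean (17.6% ± 10.6, SD over 5 days), with 31.96%, 10.7%, 25.4%, 13.4% and 6.70%. The day means of Lactobacillus were 34.1% ± 12.4, 29.3% ± 21.2, 30.7% ± 10.8, 22.7% ± 11.8 and 31.8% ± 18.5 (SD, n = 6 mice), and the ranges of all days overlapped.

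Prevotella was the steadiest of the 4 leading genera between mice, with mouse means of 10.4% to 15.5%. Its share at -2 dpi was 10.7% at the lowest, 14.8% at the median and 23.0% at the highest, and at 29 dpi it was 0%, 7.09% and 23.4%. Mouse 558 had no Prevotella counts at 14 dpi and mouse 562 none at 29 dpi.

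Turicibacter differed most between mice among the leading genera. Mouse 563 kept 13.5%, 40.1%, 27.3%, 16.1% and 35.2% over the 5 days, and mouse 561 had 22.9%, 34.0%, 34.2%, 2.80% and 6.91%. Mouse 558 went from 28.8% through 9.12%, 14.5% and 7.03% to 0% at 29 dpi. Turicibacter thus stayed a leading genus in mouse 563, whereas counts were absent in 3 of 6 mice at 29 dpi. Mouse 559 had 14.8%, 4.14%, 0%, 2.13% and 0%. Mouse 560 had 6.24%, 9.22%, 0.970%, 4.50% and 0%, and mouse 562 had 12.98%, 8.72%, 15.5%, 15.2% and 3.36%.

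Akkermansia was low at first and abundant in all mice at 19 and 29 dpi. Its share was 0% at the lowest, 4.50% at the median and 12.8% at the highest at -2 dpi, with 0%, 3.66% and 10.0% at 8 dpi and 0%, 6.36% and 23.7% at 14 dpi. The same values were 7.46%, 14.7% and 31.5% at 19 dpi and 6.896%, 11.8% and 31.9% at 29 dpi. All 6 mice had counts at the last 2 days, against 3 mice at 8 dpi, and the ranges of all days overlapped. By mouse, the shares from -2 to 29 dpi were 2.61%, 0%, 5.27%, 11.7% and 11.1% in mouse 558. They were 4.21%, 0%, 23.7%, 31.5% and 7.25% in mouse 559 and 0%, 10.0%, 12.0%, 21.8% and 31.6% in mouse 560. Mouse 561 dropped to 0% at 14 dpi between 9.11% and 7.46%, and then had 31.9% at 29 dpi. Mice 562 and 563 ended at 6.896% and 12.5%, both below their 19 dpi values of 14.4% and 14.9%.

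**Figure D2:**
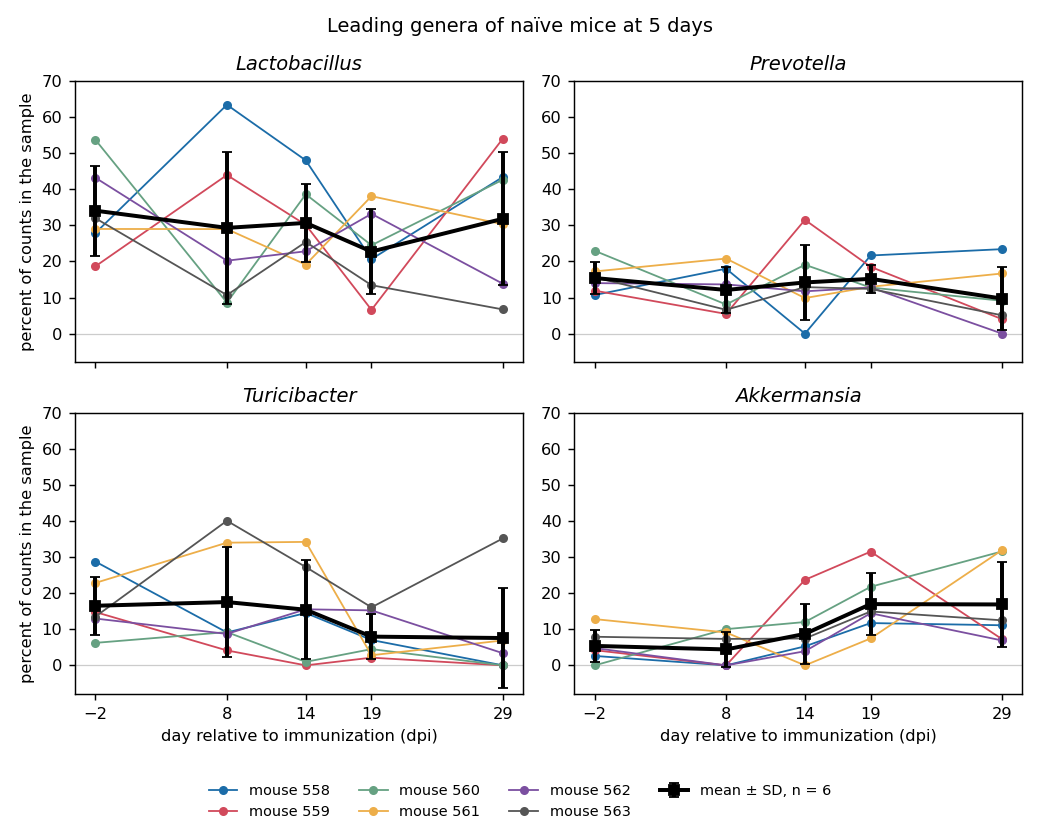
Share of counts in percent of Lactobacillus, Prevotella, Turicibacter and Akkermansia by day, with 1 line per naïve mouse and the mean ± SD of 6 mice in black. Lactobacillus lines cross between days, mouse 563 stands above the others for Turicibacter at 29 dpi (35.2%), and all 6 Akkermansia values lie above 0 at 19 and 29 dpi.

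Variation per genus was described by the coefficient of variation (CV, the SD over the mean) within a mouse over 5 days, averaged over the mice. Among the 7 genera present in at least 27 samples, the CV was lowest for Lactobacillus (47.1%) and highest for Oscillibacter (72.7%), the only Oscillospiraceae genus here. Prevotella (52.4%) and Lachnospiraceae_NK4A136/Hungatella (55.8%) lay between them. With majority genus names both ends of this order changed. Prevotella (45.7%) was then below Lactobacillus, and Lachnospiraceae_NA (74.2%, against 71.9% under the deposited names) was above Oscillibacter. The CV of Lachnospiraceae_NK4A136/Hungatella was 101% with majority names. Outside this core the CV was 81.8% for Turicibacter, 81.1% for Akkermansia, 112% for Roseburia and 143% for Barnesiella.

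The sum of squares of log2(percent + 0.1) was split into parts between mice, between days and a remainder. The split is a description, and random values over 6 mice and 5 days would give 17.2% to mice and 13.8% to days on average. For Lactobacillus, 21.4% of the variation lay between mice, 8.59% between days and 70.1% in neither. Turicibacter had the least left over, with 36.8% between mice, 29.0% between days and 34.2% in neither. Akkermansia was split mainly by day, with 32.7% between days and 5.39% between mice, and Dorea, a Lachnospiraceae genus, had 28.3% and 12.5%. Lachnospiraceae_NK4A136/Hungatella went the other way, with 30.04% between mice and 7.69% between days. With majority genus names these parts were 29.4% and 18.3%. For Prevotella, 77.2% belonged to neither.

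**Figure D3:**
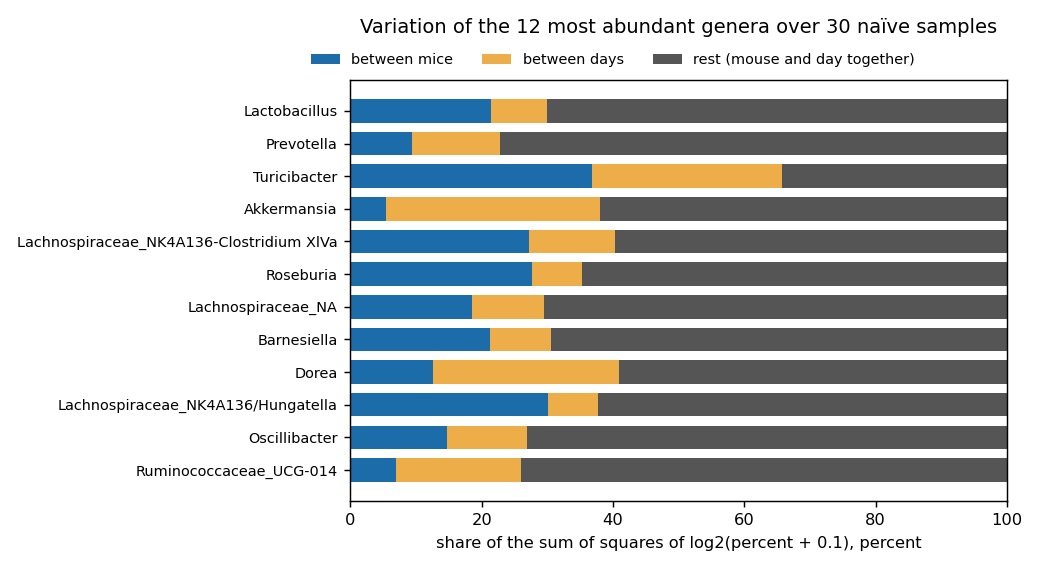
Sum of squares of log2(percent + 0.1) over 30 naïve samples, split in percent between mice, between days and the remainder, for the 12 most abundant genera. The day part is largest for Akkermansia (32.7%) and the mouse part for Turicibacter (36.8%), and the remainder is the largest part in 11 of the 12.

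Whether samples of a mouse resembled each other was asked with Bray-Curtis distances between the shares of merged sequences (0 for equal communities, 1 for none in common). Samples of the same mouse at different days were 0.454 ± 0.121 apart (SD over 60 pairs, which share samples). Samples of different mice at the same day were 0.451 ± 0.142 apart (75 pairs), and those of different mice at different days 0.477 ± 0.127 apart (300 pairs). A mouse was therefore about as far from itself on another day as from its companions on the same day, with a difference of 0.00342. Same-mouse distances minus those of other mice and days gave -0.0223, which missed the threshold (one-sided permutation test of the mouse labels within days, 100000 permutations, p = 0.0577).

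In the partition of squared distances, mice accounted for 22.7% of the variation (one-sided permutation test, p = 0.0546), days for 18.7% (one-sided permutation test of day labels within mice, p = 0.0342) and neither for 58.5%. The day part thus passed 0.05 and the mouse part did not. The day part was not past the threshold with genera (15.6%, permutation p = 0.159) or unmerged ASVs (14.1%, permutation p = 0.312). Without mouse 558, 560 or 562 it was 21.0%, 17.9% and 21.98% (permutation p = 0.0522, 0.220 and 0.0593). It was past the threshold with measures that weight rare sequences more, namely the Aitchison distance (19.3%, permutation p = 0.00016) and the Jaccard distance of presence after rarefying (20.4%, permutation p = 4e-05). The mouse part was past it with genera (25.3%, permutation p = 0.0320) and was 16.7% without mouse 563 (permutation p = 0.332).

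Each of the 10 pairs of days was also examined with all 720 matchings of the mice. For 8 and 29 dpi, samples of the same mouse were 0.452 ± 0.132 apart (SD, n = 6) and those of different mice 0.588 (exact one-sided permutation test, p = 0.00694, adjusted p = 0.0694 over the 10 pairs). For 14 and 19 dpi, which are 5 days apart, the values were 0.406 ± 0.132 and 0.433, and no mouse was nearest to its own sample. In the remaining pairs of days 1 or 2 of 6 mice were nearest to themselves, against 3 of 6 for 8 and 29 dpi, and no pair passed after adjustment.

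**Figure D4:**
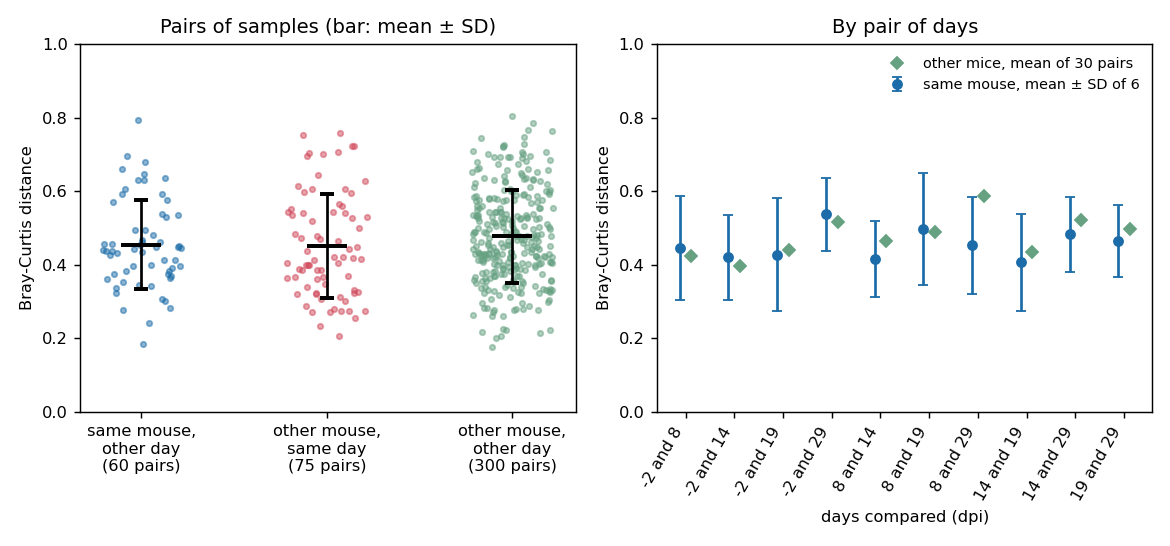
Bray-Curtis distances (0 to 1) of merged sequences among the 30 naïve samples, for 60 pairs of the same mouse, 75 pairs of different mice at a day and 300 other pairs, and mean distance to the own and to other mice for each pair of days. The 3 kinds of pairs overlap over most of their range, and own and other means are farthest apart between 8 and 29 dpi (0.452 and 0.588).

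The mice differed in how far they moved. Mouse 563 had the most stable community, with a mean of 0.368 between its own samples (0.282 to 0.528), and mouse 559 the least stable (0.577, from 0.397 to 0.792). The mean distance between mice on a day was lowest at -2 dpi (0.348 ± 0.0880, SD over 15 pairs) and highest at 29 dpi (0.553 ± 0.194), with 0.501, 0.432 and 0.421 at 8, 14 and 19 dpi. Pairs of mice ranged from 0.381 (558 and 560) to 0.555 (559 and 563) in their mean same-day distance. Distance within a mouse grew by 0.0309 ± 0.0219 (SD, n = 6) per 10 days between samples, with a positive slope in 5 of 6 mice (exact sign-flip test, two-sided, p = 0.0625). With the Aitchison and the Jaccard distance the slope was positive in 6 of 6 mice (2.39 and 0.0454 per 10 days, exact sign-flip test, p = 0.03125 for both, the smallest that 6 mice allow).

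From their own -2 dpi sample, naïve mice were 0.445 ± 0.141, 0.420 ± 0.116, 0.427 ± 0.153 and 0.536 ± 0.0988 away at 8, 14, 19 and 29 dpi (SD, n = 6). At 8 dpi these were 0.433, 0.537, 0.591, 0.184, 0.480 and 0.448 in mice 558 to 563, so that mouse 561 had moved least, and at 29 dpi they lay between 0.413 (mouse 561) and 0.661 (mouse 562). CFA mice were 0.395, 0.473, 0.306 and 0.469 away at these days (n = 6, and 5 at 29 dpi, where 1 sample had a total of 0). EAE mice at 8 dpi, before symptoms, were 0.618 ± 0.143 away (SD, n = 6), which exceeded the naïve distance by 0.172 (adjusted p = 0.254 over 5 comparisons, p = 0.0649 by an exact permutation test). Without EAE mouse 555, whose 8 dpi sample held 9202 counts, the difference was 0.157 (exact permutation test, adjusted p = 0.325). None of the 5 comparisons passed after adjustment, and the groups overlapped in each. With unmerged ASVs, CFA mice at 19 dpi were closer to their own baseline by 0.168 (exact permutation test, adjusted p = 0.0108).

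**Figure D5:**
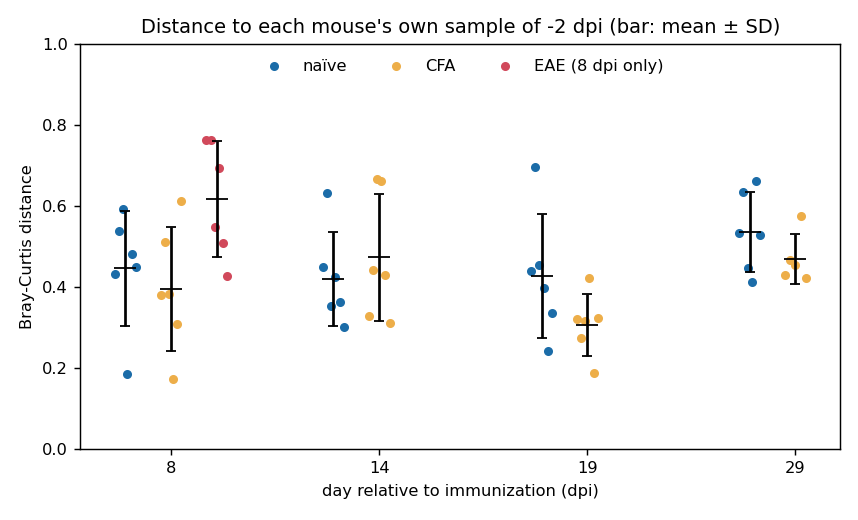
Bray-Curtis distance of each mouse to its own -2 dpi sample by day, for naïve mice, CFA mice and, at 8 dpi only, EAE mice, with the mean ± SD. Naïve and CFA points overlap at each day, and naïve means lie between 0.420 and 0.536.

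The change of each of the 12 most abundant genera against the -2 dpi sample of the same mouse was tested at 4 days with exact sign-flip tests. None of the 48 tests passed after adjustment (lowest adjusted p = 0.75). The smallest p that 6 mice allow is 0.03125, which passes here only if many tests reach it, so the sizes are given as descriptions. The 2 tests at that p were Akkermansia at 29 dpi and Oscillibacter at 19 dpi. Akkermansia was higher than at -2 dpi in 6 of 6 mice at 29 dpi, by 11.5 percentage points ± 11.7 (SD, n = 6, from 2.11 to 31.6), and in 5 of 6 mice at 19 dpi, by 11.6 ± 11.6 (exact sign-flip test, p = 0.0625). Oscillibacter was 0.382% at the lowest, 0.772% at the median and 1.64% at the highest at -2 dpi and 1.14%, 2.17% and 3.28% at 19 dpi, and it was higher in 6 of 6 mice by 1.28 ± 0.831 points. At 29 dpi Oscillibacter was higher in only 2 of 6 mice. In CFA mice, Oscillibacter at 19 dpi was below its -2 dpi level by a mean of 0.642 points, with a change of -0.642 ± 1.35 (SD, n = 6).

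Among the other large changes, Lactobacillus at 19 dpi was lower in 5 of 6 mice with a mean change of -11.3 ± 12.7 points (exact sign-flip test, p = 0.0938). Turicibacter had a mean change of -8.55 ± 11.04 points at 19 dpi and was lower in 4 of 6 mice. At 29 dpi its mean change was -8.94 ± 16.9 points, and it was lower in 5 of 6 mice. On the centred log ratio scale (log count less the mean log count of the sample), it was then lower in 6 of 6 mice. That change had p = 0.03125 (exact sign-flip test, adjusted p = 0.7), with counts absent in 3 of 6 mice at 29 dpi. Prevotella at 29 dpi had a mean change of -5.70 ± 10.3 points and was lower in 5 of 6 mice. The direction was often unsteady, as 26 of the 48 mean changes took the other sign under at least 1 alternative, 23 of them when a single mouse was left out. Akkermansia at 19 and 29 dpi and Oscillibacter at 19 dpi kept the sign of their mean change in all alternatives. Fewer mice rose on the centred log ratio scale. There Akkermansia was higher in 4 of 6 mice at 19 and at 29 dpi (exact sign-flip test, p = 0.125 and 0.15625). Oscillibacter at 19 dpi was higher in 5 of 6 mice on that scale (exact sign-flip test, p = 0.0625).

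Genus counts were also compared between days with edgeR's quasi-likelihood test in a fit of all 88 samples with counts. The 65 genera tested had counts in 3 or more of these 88 samples, and 60 of the 65 had counts in naïve mice. No genus passed at 8 dpi (0 of 65, 0%) or 14 dpi (0 of 65, 0%), with 9 and 11 at an unadjusted p under 0.05. At 19 dpi 2 of 65 (3.08%) passed, with 13 at an unadjusted p under 0.05, and at 29 dpi 2 of 65 (3.08%), with 17. On both days these were Anaerostipes, a butyrate producer, and Romboutsia, a genus of Peptostreptococcaceae.

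Neither call reflects most mice. Anaerostipes had no counts in any mouse at -2, 8 and 14 dpi, 0.872% and 0.731% in mice 559 and 563 at 19 dpi, and 1.13% and 1.06% in mice 558 and 559 at 29 dpi (edgeR adjusted p = 0.0374 and 0.0323). Its only sequence in the naïve mice was also deposited under Coprococcus, and under either name it was found in 1, 0, 1, 2 and 3 mice from -2 to 29 dpi. Romboutsia was found in a single naïve sample, that of mouse 558 at -2 dpi, with 0.666% of counts (edgeR adjusted p = 0.0374 at 19 dpi and 0.0371 at 29 dpi). It thus entered the test only through samples of the other groups. Anaerostipes was not called without any 1 of the mice, with the 30 naïve samples alone, or with the mouse as a replicate block. Romboutsia was also lost without any 1 mouse, but without mouse 558 it had no naïve counts. With the naïve samples alone or the block it had too few samples to be tested. Both calls stayed with normalization by total counts only and with no filter on rare genera. DESeq2 called 9, 9, 12 and 14 genera at the 4 days, with both among them at 19 and 29 dpi. For Akkermansia the same edgeR fit gave log2 changes of 1.53 at 19 dpi and 2.06 at 29 dpi, with adjusted p = 1 and 0.869.

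Over any of the 5 days, 10 of 65 genera (15.4%) passed (17 at an unadjusted p under 0.05), and each of them had counts in only 1 to 5 of the 30 samples. Beside Anaerostipes and Romboutsia they were Muribaculum, Marvinbryantia, Ruminiclostridium, Enterococcus, Mycoplasma, Phocea/Angelakisella, Christensenella and Ruminococcaceae_UCG-005, the last 3 named after their values were seen. Romboutsia, Muribaculum, Ruminiclostridium, Enterococcus, Mycoplasma, Christensenella and Ruminococcaceae_UCG-005 had counts in only 1 or 2 naïve samples. These genera reached the 3 samples needed for the test only through the other groups. Muribaculum, a genus of Bacteroidales, reached 4.56% in mouse 558 at -2 dpi and 2.86% in mouse 562 at 8 dpi and had no other counts. Marvinbryantia was absent until 14 dpi, was 0.750% in mouse 561 at 19 dpi and lay between 0.407% and 1.25% in 4 mice at 29 dpi. Mycoplasma, which lacks a cell wall, was found in mouse 563 at 29 dpi only (0.128%). None of the genera with counts in at least 15 samples was among the 10. With the mouse as a replicate block 0 of 50 passed. That fit used the naïve samples alone, so genera with counts in only 1 or 2 of them were not tested. Without 1 of the mice 3 to 7 passed.

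Between mice, 0 of 50 genera (0%) passed in edgeR and 2 had an unadjusted p under 0.05. These were Coprococcus, which includes butyrate producers, and Turicibacter, both with an adjusted p of 0.754 in edgeR. The next in order were Blautia, Lachnospiraceae-Clostridium XlVa and Lachnospira, all of Lachnospiraceae. For Coprococcus 46.8% of the log2 variation lay between mice.

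By list, the 12 genera whose course the study followed in EAE all had counts in naïve mice, although Romboutsia and Mycoplasma had them in a single sample each. Of these 12, 1 was called at 19 and at 29 dpi, beside 2 of 65 (3.08%) over all genera. Over any of the days 5 were called, beside 10 of 65 (15.4%), and each of the 5 had counts in 1 to 5 samples. All of these but Marvinbryantia had counts in only 1 or 2 naïve samples and entered the test only through the other groups. The count is therefore not read as a result about the list. Together the 12 held 9.23% to 63.8% of a naïve sample (median 30.9%). The study chose this list on samples that include these. Of 8 butyrate producer names, 7 had counts and 1, Anaerostipes, was called at 19 and at 29 dpi, beside 2 of 65 over all genera. The median change in mean share of the 7 was 0, 0, 0.267 and 0.0229 points at 8, 14, 19 and 29 dpi. Over all 62 genera it was 0, 0, 0.0295 and 0.0181 points. The median at 19 dpi is the change of Anaerostipes, which had counts in 2 mice on that day. The summed share of the butyrate producers ran from 0.468% to 19.4% (median 3.41%), and Roseburia in mouse 562 (17.4% at 29 dpi) made most of the highest. The 3 genera with counts of each of Mollicutes, Bacteroidales and Erysipelotrichaceae had no call at any of the 4 days. Of the 2 lactic acid producers, Lactobacillus and Enterococcus, neither was called at the 4 days, and Enterococcus, with counts in 2 samples, was called over any of the days.

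Alpha diversity showed no change that passed the test. The Shannon index of merged sequences (natural log, higher for more and more even sequences) was 2.24 ± 0.402, 2.34 ± 0.772, 2.30 ± 0.204, 2.60 ± 0.253 and 2.27 ± 0.633 from -2 to 29 dpi (SD, n = 6). The spread at 8 dpi ran from 1.26 in mouse 558, the sample with 63.4% Lactobacillus, to 3.30 in mouse 560. At 19 dpi the index was higher than at -2 dpi in 5 of 6 mice, by 0.369 ± 0.362 (exact sign-flip test, p = 0.0938, adjusted p = 0.375 over 4 days), and at the other days the mean change was at most 0.107. Body weight, by contrast, was higher at 29 than at 8 dpi in 6 of 6 naïve mice, by 1.53 g ± 0.734 (exact sign-flip test, p = 0.03125, the smallest that 6 mice allow).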

How the data were processed

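The authors amplified 16S rRNA genes from fecal DNA, inferred ASVs with DADA2 (version not given in the sources used here) and deposited counts per ASV and sample with taxonomic names curated by hand, and body weights in grams, which matched the labels. Of 89 samples in the deposited table, 88 had counts. Here ASVs were merged after removing primers. Genera that had counts in 3 or more samples entered edgeR 4.0.16 (R 4.3.3, TMMwsp, 15 groups of treatment and day), with DESeq2 1.42.0 as an alternative. Distances, permutation and sign-flip tests used Python 3.11.15, numpy 2.4.6, pandas 2.3.3 and SciPy 1.17.1, with Benjamini-Hochberg adjustment and a threshold of 0.05. Code was tested on simulated data. Mouse numbers in the labels pair the samples of a mouse (the mean correlation of genus deviations within a mouse was -0.0824 to 0.151). Sign-flip tests assume that mice, not cages, are independent. Alternatives were unmerged ASVs, genera, Aitchison (pseudocount 0.5) and Jaccard distances, rarefying, centred log ratios, other normalization and filters, naïve samples only, the mouse as a replicate block and the omission of each mouse in turn. Majority genus names, leaving out EAE mouse 555, and, for the test over any day, naïve samples without a block, the DESeq2 likelihood ratio test, no filter and merged sequences were added, all chosen after seeing the data. The text names the 12 genera with the highest mean share, genera called against -2 dpi, the 5 with the smallest p between mice, the 8 largest families, members of the lists, and others marked as chosen after seeing their values. The members and lists were chosen with earlier results of these data known. Of 91 samples, 2 water controls were not analysed here.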

Additional observations from a re-analysis of the deposited data

Results flagged for a closer look

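In 73 groups of 6 naïve mice (a genus or index at a day), 8 had a highest value whose gap to the next exceeded the critical value of Dixon's test, which chance exceeds in about 1 of 20 groups. Mouse 562 accounted for 4 of these. Its share of Roseburia was 12.9% at 8 dpi and 17.4% at 29 dpi, its Lachnospiraceae_NA share was 8.72% at 29 dpi and its Barnesiella share was 10.0139% at 14 dpi. Mouse 559 had the highest Roseburia share at -2 dpi (7.37%) and the highest Oscillibacter share at -2 dpi (1.64%). Mouse 563 had 35.2% Turicibacter at 29 dpi, where no other mouse exceeded 6.91%, and 4.04% Ruminococcaceae_UCG-014 at 14 dpi.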

How the results depend on the processing

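Of 376 values recomputed under an alternative, 270 stayed in place, 42 lost and 9 gained the threshold, 37 moved and 18 turned sign; the causes were not tested. The mouse share of distance was 25.3% with genera and 16.7% to 24.1% without 1 mouse, and the day share 14.1% with ASVs, 15.6% with genera and 17.9% to 23.4% without 1 mouse. Same-mouse minus same-day distance was -0.0105 with ASVs, -0.0108 with genera and -0.00875 to 0.0246 without 1 mouse. The slope per 10 days was 2.39 (Aitchison) and 0.0454 (Jaccard). CFA minus naïve distance to baseline was 0.0239 with ASVs and 1.81 with the Aitchison distance at 8 dpi, -0.0677 with Jaccard at 14 dpi, and -0.168 with ASVs and 0.00460 with Jaccard at 19 dpi. EAE minus naïve at 8 dpi was -1.40 with the Aitchison distance. Core genera numbered 7 at 27 samples. The Lachnospiraceae_NK4A136/Hungatella change at 19 dpi was -0.0378 as a centred log ratio and -0.347 with majority names. The Shannon change at 29 dpi was -0.0661 with genera, and without 1 mouse it was -0.210 to 0.319 at 8 dpi, -0.0574 to 0.240 at 14 dpi and -0.195 to 0.197 at 29 dpi. The weight change was 1.3 to 1.74 g without 1 mouse, where 5 mice allow no exact p below 0.0625.

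Genera called at 8, 14, 19 and 29 dpi numbered 9, 9, 12 and 14 with DESeq2. They numbered 0, 3, 3 and 3 with no filter, and 0, 3, 2 and 0 with majority names. The naïve samples alone and the replicate block gave 0 of 50 at each day, where Romboutsia was not tested. Genera called numbered 0 at each day without any 1 mouse. Merged sequences gave 0, 4, 4 and 0 of 203. Over any day the count was 2 with the naïve samples alone, 0 with the replicate block and 0 with the DESeq2 likelihood ratio test. Each of these tested only the 50 genera with counts in 3 or more naïve samples. The count was 109 of 203 with merged sequences and 3 to 7 without 1 mouse. Between mice, 1 merged sequence was called. In the paired genus tests, dropping the replicate block (an unpaired exact permutation test) left a lowest adjusted p of 0.364, and it changed no other call.

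Counts under the limit of 3 are not told from 0, and most counts above 0 were far above it (5th percentile 69.8 per ASV). Calls on genera seen in few samples rest on presence in 1 to 5 libraries.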

Other observations

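Akkermansia had counts in 25 of 30 naïve samples and in 20 of 29 EAE samples, but in 0 of 29 CFA samples. There a count of 0 allows a share of up to 0.00962% by counting error alone. The split held at -2 dpi, before any treatment, with counts in 5 of 6 naïve, 4 of 6 EAE and 0 of 6 CFA mice. Peptococcus-rc4-4, a genus of Peptococcaceae, showed the same split, with 20 of 30 naïve, 18 of 29 EAE and 0 of 29 CFA samples. Both genera were picked after their values were seen, and no test was made. Cage and group cannot be told apart for the CFA mice.

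Mouse 563 combined the most stable community (mean distance 0.368 between its own days) with the highest share of counts in kept genera, as those present at all 5 days held at least 78.5% of its counts. In mouse 558 the 5 genera kept at all days held 32.3% to 69.3%. Mouse 560 kept a nearly constant share of Lachnospiraceae_NK4A136/Hungatella (2.05% ± 0.192, SD over 5 days, CV 9.39%), as did mouse 562 (2.99% ± 0.367, CV 12.3%), while in mouse 558 the CV of this genus was 111%.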
